A study of Mus musculus with 18 samples.

Results

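Collagens are the secreted proteins whose 3 chains wind into a triple helix. Their genes were taken from the table by symbol, as every row named Col, a number, a and a number, with Col17a1 left out. This gave 43 of the 26143 genes: 11 fibrillar, 9 basement membrane, 9 FACIT (fibril-associated collagens with interrupted triple helices), 7 beaded filament and 7 other members. Every member had at least 1 read, and 39 passed the filter on low values and were tested. Col9a1, Col9a2, Col6a6 and Col13a1 were not tested.

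RNA was sequenced in 18 mouse libraries that the labels call squamous epithelium, in a study of mutant PIK3CA and p53 in tumours started with the carcinogen 4NQO. The WT group is wild type esophagus (n = 3). The p53 group is tongue heterozygous for LSL-p53 R172H (n = 3), the E20 group is tongue with LSL-PIK3CA H1047R (n = 6), and the E20/p53 group is tongue with both alleles and K14-Cre (n = 6). LSL is a stop element between loxP sites that Cre recombinase removes, and K14-Cre makes Cre under the promoter of keratin 14, which is active in basal cells of stratified epithelium. The labels name K14-Cre in E20/p53 alone. They do not give sex or age, nor which libraries came from a tumour or from treated tissue. Nothing states that libraries of a group came from separate animals, and the p-values below carry the spread among libraries, which may be technical, and no more than that. WT is another tissue, so tissue and genotype cannot be told apart in any comparison with it.

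Fibrillar collagens I, III and V assemble into the banded fibrils of connective tissue and are made mainly by fibroblasts. Collagen IV chains form the sheet of the basement membrane under epithelium and around muscle and vessels, and collagen VII anchors that sheet to the fibrils below. Collagen VI forms beaded filaments between both networks, and FACIT collagens sit on fibril surfaces. New chains are hydroxylated and folded in the endoplasmic reticulum, secreted, trimmed by proteinases, crosslinked by lysyl oxidases, bound by integrin and discoidin receptors, and cut by matrix metalloproteinases.

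Libraries held 14592044 to 18176060 reads. Levels are CPM, reads scaled to 1e6 of the adjusted library total, given as mean ± SD. The libraries fell into 6 sets of 3: WT, p53, replicates 1 to 3 and 4 to 6 of E20, and replicates 1 to 3 and 4 to 6 of E20/p53. The sets inside E20 and E20/p53 come from the data and not from the design, so they are described by their values and not tested against each other. Markers differed between sets. The summed level of 10 fibroblast markers was 138 ± 5.22 CPM in WT and 1560 ± 4.71 in p53. The E20 sets held 1295 ± 16.8 and 1409 ± 27.4 CPM. E20/p53 1 to 3 held 327 ± 9.19 CPM and E20/p53 4 to 6 held 806 ± 21.4. Between these E20/p53 sets Pdgfrb (41.4 and 386 CPM) and Prrx1 (146 and 231 CPM) differed most in CPM. Pdgfra (50.7 and 65.2 CPM) and Fbln1 (75.3 and 98.6 CPM) lay closer. Twist2 went against the sum and was highest in WT (29.2 CPM). For 12 squamous markers the sum was 1745 ± 14.0 CPM in E20/p53 1 to 3, 356 ± 7.15 in WT and 176 ± 11.1 in E20 1 to 3. Libraries 4 to 6 of E20/p53 held 13.0 ± 0.687 CPM, those of E20 3.74 ± 0.227 and the p53 libraries 9.08 ± 1.32. Of the 12 markers 11 were under 1 CPM in E20 4 to 6 and 9 each in p53 and E20/p53 4 to 6, so that most markers of the labelled epithelium were near 0 there, against 4 under 1 CPM in WT. Some did not follow this. Those near 0 in WT too were Krt4, Epcam, Krt5 (0.0784 CPM) and Krt6a (0.304 CPM). Pkp1 was at 6.74 CPM in E20/p53 4 to 6 and 5.92 in WT. Trp63 was at 3.29 and 2.96 CPM in libraries 4 to 6 of E20 and E20/p53. Summed skeletal muscle markers were at 2118 ± 74.0 CPM in p53, between 680 and 710 CPM in both E20 sets and E20/p53 4 to 6, and under 7 CPM in WT and E20/p53 1 to 3. In the E20 sets Des (554 and 640 CPM) and Chrna1 (153 and 46.2 CPM) made up nearly all of that sum, and 5 and 4 of the 8 markers were under 1 CPM. In bulk RNA, fewer cells of a type and less RNA per cell cannot be told apart.

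A repeated feature of collagen genes shows the family in sequence. The triple helix is a run of Gly-X-Y triplets, coded by 9 bases each with a GGN codon for glycine, and many exons of fibrillar collagens hold exactly 6 such repeats, or 54 bases. In GENCODE M21 on mm10, 305 of 649 coding exons (47.0%) of the 11 fibrillar genes had this length, in the longest coding transcript of each gene. The share was 109 of 432 (25.2%) for FACIT genes, 19 of 252 (7.54%) for beaded filament genes and 22 of 495 (4.44%) for basement membrane genes. An example exon is shown for each of the fibrillar genes Col1a1, Col1a2 and Col3a1, and for Col4a1 as the basement membrane chain. They lie in the coding sequence at chr11:94939904-94939957 (+), chr6:4515481-4515534 (+), chr1:45325360-45325413 (+) and chr8:11245211-11245264 (-). Capitals mark the glycine codons that open each repeat.
Col1a1: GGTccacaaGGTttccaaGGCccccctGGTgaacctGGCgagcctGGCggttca
Col1a2: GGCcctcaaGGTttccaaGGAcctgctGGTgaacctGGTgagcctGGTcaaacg
Col3a1: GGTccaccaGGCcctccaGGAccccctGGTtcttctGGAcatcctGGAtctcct
Col4a1: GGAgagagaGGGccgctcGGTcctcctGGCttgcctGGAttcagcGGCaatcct
Such exons, which begin with a GGN codon and repeat it every 9 bases, numbered 21 in Col1a1, 23 in Col1a2, 24 in Col3a1 and 2 in Col4a1.

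The summed level of the 43 genes differed widely between sets. It was 2216 ± 57.7 CPM (0.222% of the scaled total) in E20/p53 1 to 3 and 3425 ± 91.6 CPM (0.343%) in WT. It reached 14951 ± 766 CPM in p53, 25734 ± 1479 and 26536 ± 950 CPM in E20, and 28277 ± 1341 CPM (2.83%) in E20/p53 4 to 6. The makeup differed too. Fibrillar genes held 85.7% ± 0.118 of collagen reads in E20/p53 4 to 6, 78.4% ± 0.0904 and 79.4% ± 0.122 in E20, 73.0% ± 0.308 in p53 and 52.3% ± 0.757 in WT, but 31.6% ± 0.102 in E20/p53 1 to 3. Basement membrane genes held 32.1% ± 0.606 there and 29.6% ± 0.416 in WT, against 3.05% ± 0.0966 to 11.5% ± 0.324 in the other sets. WT and E20/p53 1 to 3, the sets lowest in fibrillar collagen, had the highest summed squamous markers and at most 327 CPM of fibroblast markers. Single squamous markers did not all follow. Perp (226 CPM) and Dsp (94.9 CPM) carried most of the WT sum. Krt5, Krt14, Krt6a, Trp63 and Pkp1 were higher in E20 1 to 3 than in WT. Krt15, Krt13, Epcam, Cdh1, Dsp and Perp were lower there. The part of these marker levels in the result was not tested.

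**Figure D1:**
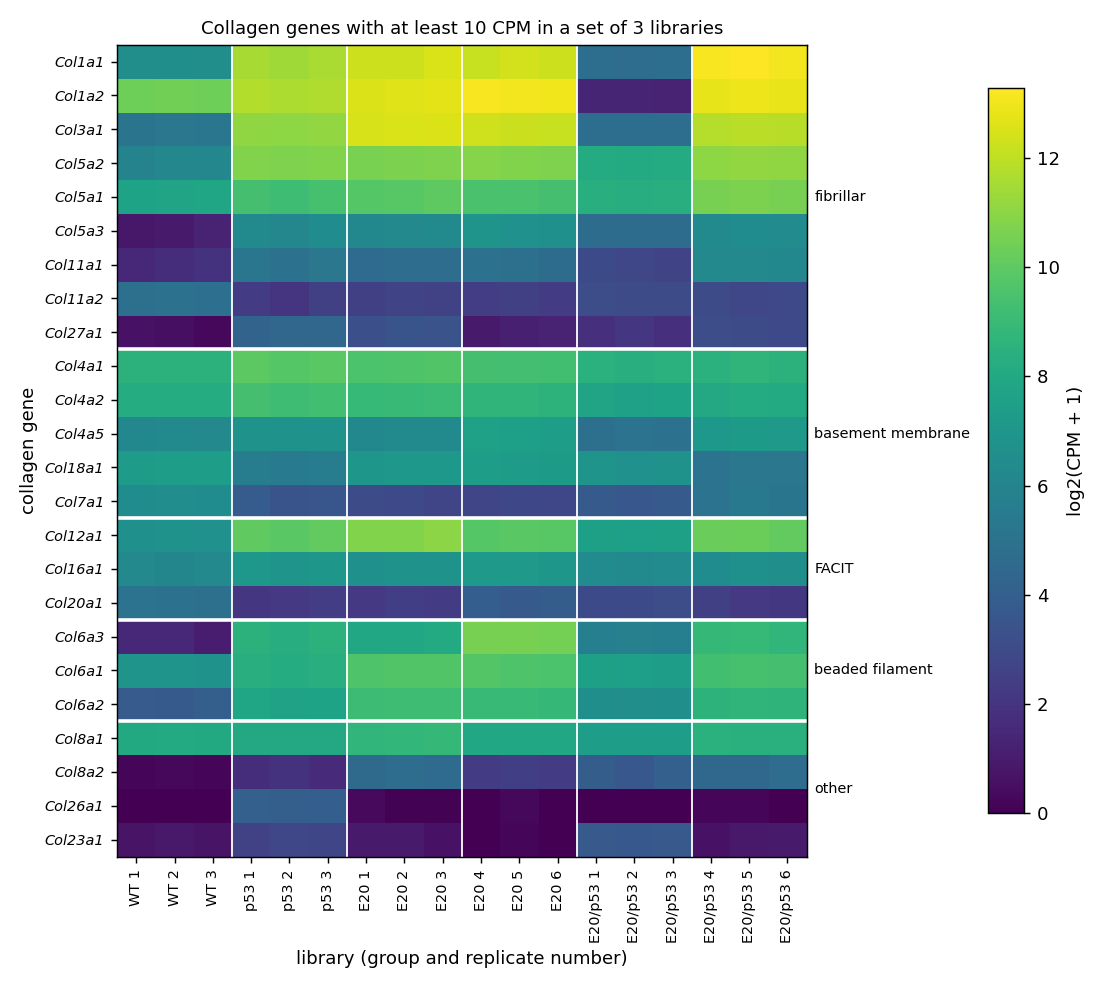
Level of each of the 24 collagen genes with at least 10 CPM in some set, in each of the 18 libraries, as log2(CPM + 1) by colour, with genes grouped by type and white lines between sets and types. Col1a2 is at 1.58 CPM in E20/p53 1 to 3 and at 7391 CPM in E20/p53 4 to 6, while Col4a1 stays between 348 and 933 CPM over the 6 sets.

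Type I collagen, the most abundant protein of connective tissue, is built of 2 chains from Col1a1 and 1 from Col1a2. In WT libraries Col1a1 was at 93.3, 97.9 and 92.1 CPM, and in p53 at 3027, 2646 and 3065 CPM. E20 libraries 1 to 6 held 4870, 4993, 5831, 4642, 5376 and 5018 CPM. E20/p53 libraries 1 to 3 held 26.4, 25.8 and 26.5 CPM, and libraries 4 to 6 held 9236, 9952 and 8579 CPM. The E20/p53 group therefore held both the lowest and the highest Col1a1 of the series, so that its range covered every other group. Col1a2 was at 1308, 1420 and 1305 CPM in WT and at 3457, 3156 and 3357 CPM in p53. In E20 it was at 6079, 6266, 6749, 9203, 8520 and 8179 CPM. In E20/p53 1 to 3 it was at 1.60, 1.63 and 1.52 CPM and in 4 to 6 at 7073, 7799 and 7301 CPM. Libraries 1 to 3 of E20/p53 lay below WT for both chains, and Col1a2 lay further below than Col1a1.

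Col3a1 encodes the chain of collagen III, which joins collagen I in the fibrils of skin, vessels and healing wounds. It was at 33.8, 37.8 and 36.1 CPM in WT and at 2166, 2082 and 2214 CPM in p53. E20 libraries held 5692, 5927, 6128, 5158, 4804 and 4542 CPM. E20/p53 libraries held 26.8, 27.1 and 26.6 CPM in 1 to 3 and 3595, 3856 and 3749 CPM in 4 to 6. E20 lay above every library of the other groups. Col5a2, a chain of the collagen V that sits inside type I fibrils and limits their width, was at 61.1, 69.6 and 68.8 CPM in WT and at 1748, 1705 and 1760 CPM in p53. Its E20 libraries held 1568, 1647, 1658, 1878, 1747 and 1669 CPM. Its E20/p53 libraries held 291, 281 and 287 CPM in 1 to 3 and 2070, 2203 and 2145 CPM in 4 to 6. Unlike Col1a1, Col1a2 and Col3a1, Col5a2 in E20/p53 1 to 3 lay above WT.

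The other fibrillar genes are given by set. Col5a1, the partner chain of Col5a2, was at 215 ± 5.71 CPM in WT, 635 ± 54.7 in p53, 927 ± 65.4 and 688 ± 22.4 in E20, 317 ± 11.6 in E20/p53 1 to 3 and 1525 ± 58.2 in 4 to 6. Col5a3, a further chain of collagen V, ran from 1.10 ± 0.363 CPM in WT to 107 ± 8.18 in E20 4 to 6, with 25 ± 0.270 in E20/p53 1 to 3. Col11a1, a chain of the collagen XI that is best known from cartilage and tumour stroma, ran from 2.35 ± 0.453 CPM in WT to 74.1 ± 2.09 in E20/p53 4 to 6. Col11a2 was highest in WT, with 28.7 ± 1.24 CPM in WT and 3.89 ± 0.881 to 7.59 ± 0.164 in the tongue sets. Col27a1 was at 19.1 ± 1.11 CPM in p53 and at or under 9.41 ± 0.795 elsewhere. Col24a1 and Col2a1, the cartilage collagen, stayed under 10 CPM in every set.

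**Figure D2:**
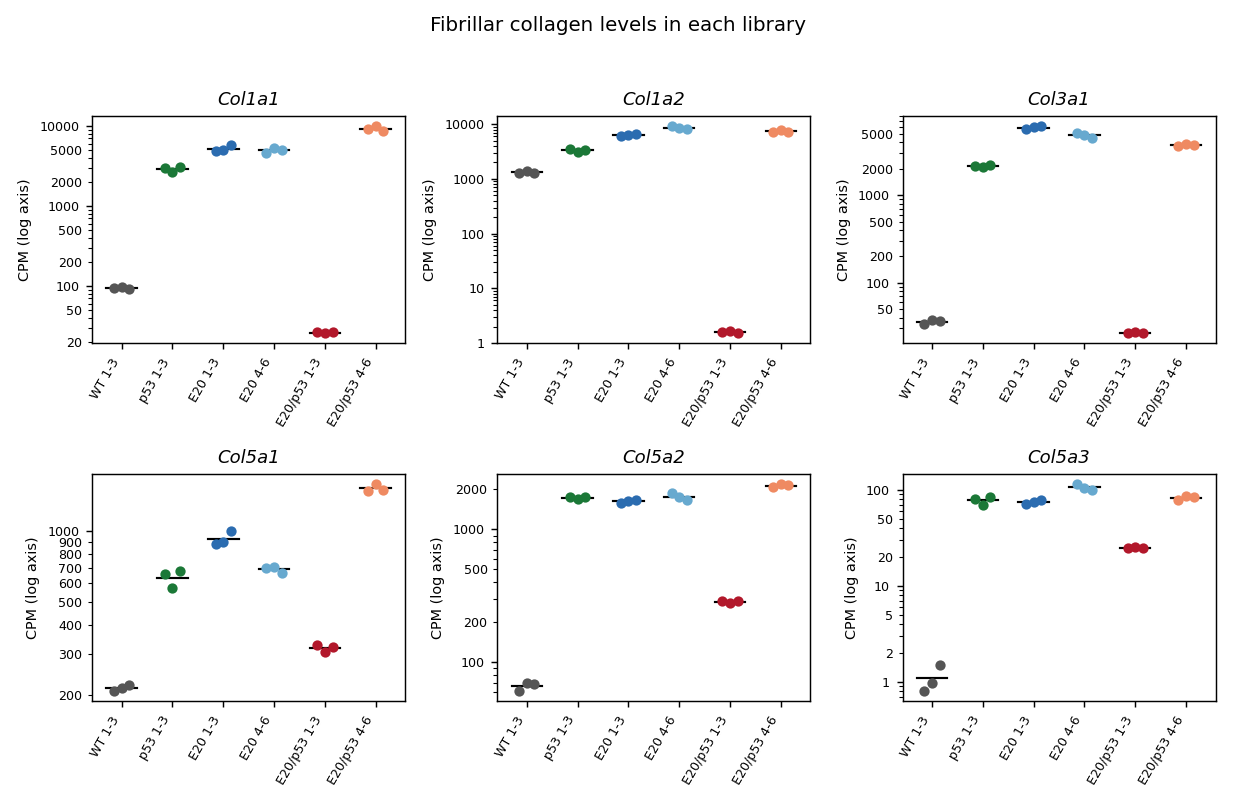
CPM on a log axis of 6 fibrillar collagen genes, 1 point per library, with the mean of each set of 3 libraries as a line. E20/p53 1 to 3 lie at 26.2 CPM for Col1a1 and 1.58 CPM for Col1a2, below the 3 WT libraries, and at 286 CPM for Col5a2, above them.

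The main basement membrane chains covered a narrower range. Col4a1 and Col4a2 encode the chains of the common collagen IV network. Col4a1 was at 370, 365 and 370 CPM in WT, at 986, 884 and 930 CPM in p53, and at 741, 786, 824, 648, 638 and 608 CPM in E20. In E20/p53 it was at 361, 328, 354, 352, 406 and 368 CPM. Both sets of E20/p53 thus lay around WT and below every p53 and E20 library. Col4a2 was at 294, 302 and 293 CPM in WT, at 661, 568 and 611 in p53, at 481, 519, 534, 407, 412 and 388 in E20, and at 214, 193, 208, 259, 288 and 272 in E20/p53. p53 was again the highest group, and here every E20/p53 library lay below every WT library. Col4a5 was highest in E20 4 to 6 at 182 ± 12 CPM and lowest in E20/p53 1 to 3 at 30.7 ± 1.48, with 112 ± 0.137 in p53 and 76.0 to 141 CPM in the remaining sets.

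Col7a1 encodes the anchoring fibril, which keratinocytes and fibroblasts make. It was at 87.3, 91.5 and 86.5 CPM in WT, at 13.5, 9.84 and 10.8 in p53, and at 7.16, 6.66, 5.85, 5.96, 6.34 and 6.04 in E20. E20/p53 libraries held 12.4, 11.3, 12.4, 32.2, 39.8 and 34.3 CPM, which is above every E20 library and below every WT library. Col18a1, whose C-terminal fragment is endostatin, was at 168 ± 5.27 CPM in WT, 46.0 ± 2.97 in p53, 134 ± 2.86 and 161 ± 8.39 in E20, 110 ± 5.17 in E20/p53 1 to 3 and 35.7 ± 2.67 in 4 to 6. The chains Col4a3 and Col4a4 were at 7.44 ± 0.786 and 9.52 ± 0.494 CPM in WT and under 1 CPM in each of the other sets, and are named after their values were seen.

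Collagen VI is built of chains from Col6a1, Col6a2 and Col6a3 in muscle, skin and most stroma. Col6a1 was at 116, 115 and 113 CPM in WT, at 332, 298 and 315 in p53, and at 778, 803, 830, 854, 799 and 737 in E20. E20/p53 libraries held 183, 181, 176, 616, 682 and 668 CPM. Col6a2 was at 13.2, 12.5 and 15.1 CPM in WT, at 221, 201 and 204 in p53, at 553, 561, 564, 496, 493 and 463 in E20, and at 95.9, 94.8, 96.1, 381, 409 and 401 in E20/p53. For both chains E20 was the highest group without overlap, and E20/p53 lay on both sides of p53. Col6a3 behaved apart from its partners. It was at 1.74, 1.90 and 1.02 CPM in WT, at 372, 309 and 376 in p53, at 236, 237 and 277 in E20 1 to 3, at 1516, 1493 and 1440 in E20 4 to 6, and at 52.3, 54.4, 52.5, 462, 479 and 434 in E20/p53. Col6a3 parted the E20 sets, while Col6a1 and Col6a2 did not part them to this degree. The remaining beaded members Col6a4, Col6a5, Col6a6 and Col28a1 stayed under 2 CPM.

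**Figure D3:**
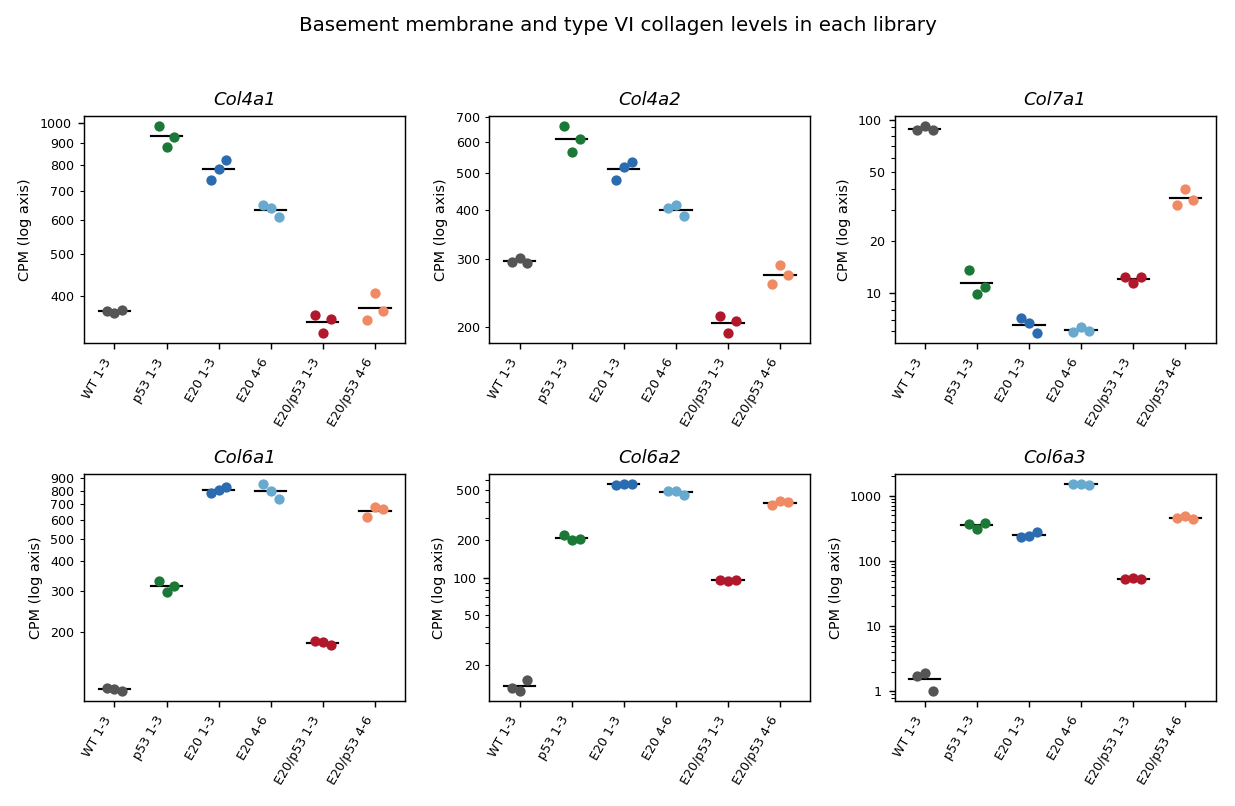
CPM on a log axis of 3 basement membrane and 3 type VI collagen genes, 1 point per library, with the mean of each set of 3 libraries as a line. Both E20/p53 sets of Col4a1, at 348 and 375 CPM, lie below p53 and E20, and Col6a3 is at 250 CPM in E20 1 to 3 and at 1483 CPM in E20 4 to 6.

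Col12a1 is the FACIT chain that coats type I fibrils in tissue under load. It was at 105 ± 4.50 CPM in WT, 1023 ± 80.0 in p53, 1835 ± 170 and 906 ± 21.1 in E20, 183 ± 3.18 in E20/p53 1 to 3 and 1195 ± 77.4 in 4 to 6. Col16a1 ran from 73.4 ± 4.49 CPM in WT to 139 ± 6.51 in E20 4 to 6. Col20a1 was at 31.1 ± 1.56 CPM in WT and at or under 13.8 ± 1.11 in tongue. The other 6 FACIT members were under 10 CPM.

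Of the other members, Col8a1 encodes a short-chain collagen of vessel walls and the Descemet membrane of the eye. It was at 269 ± 5.25 CPM in WT, 256 ± 1.06 in p53, 443 ± 11.6 and 241 ± 4.22 in E20, and 172 ± 2.63 and 349 ± 6.03 in E20/p53. Its partner chain Col8a2 was at 0.158 ± 0.0622 CPM in WT, 2.43 ± 0.338 in p53, 24.6 ± 1.35 and 4.15 ± 0.396 in E20, and 13.8 ± 2.26 and 22.9 ± 2.42 in E20/p53. Col26a1 was at 15.8, 15.2 and 14.9 CPM in p53 and at or under 0.273 CPM in every other library. WT and E20/p53 1 to 3 had 0 reads of it, which makes the p53 level at least 255-fold that of WT against a floor of 3 reads over the 3 WT libraries, a bound that covers counting error only. The membrane collagen Col23a1 was at 11.9, 11.8 and 12.1 CPM in E20/p53 1 to 3, at 5.67 ± 0.451 in p53 and under 1 CPM in the other 4 sets. In all, 19 members stayed under 10 CPM in every set, and 6 of these under 1 CPM.

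The comparison of E20/p53 with E20 is between tongue with and without the p53 allele, both carrying mutant PIK3CA, and K14-Cre is named on one side. The basement membrane and type VI chains Col4a1, Col4a2, Col6a1 and Col6a2 fell in E20/p53, while the anchoring fibril gene Col7a1 rose. Of the 39 tested members 14 fell and 10 rose, where limma called 19.6% of all 15235 tested genes lower and 23.0% higher. The median log2 change was -0.86 for the members and 0.05 for all tested genes. By type, 5 of 6 beaded members fell (Col6a1, Col6a2, Col6a3, Col6a4 and Col6a5) and none rose. Basement membrane genes went both ways, with Col4a1, Col4a2 and Col18a1 lower and Col7a1, Col15a1, Col4a3, Col4a4 and Col4a6 higher. Col3a1, Col1a2 and Col5a3 fell and Col2a1 and Col11a2 rose among 11 fibrillar genes, Col12a1, Col9a3 and Col16a1 fell and Col22a1 rose among 7 FACIT genes, and Col25a1 and Col23a1 rose among 6 others. Those not listed for full values above, in this and the following comparisons, are named after their values were seen. Col15a1, Col4a3, Col4a4, Col4a6, Col6a4, Col6a5 and Col22a1 had means of at most 1.75 CPM in both groups, so their calls rest on few reads. With each of the 4 sets of E20 and E20/p53 left out in turn, 11 of the 24 calls held each time (Col4a1, Col4a2, Col7a1, Col18a1, Col16a1, Col9a3, Col6a1, Col6a2, Col6a5, Col11a2 and Col25a1) and 12 were lost at least once. Col15a1 was not tested without E20/p53 1 to 3.

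Single genes differed in how far both sets of E20/p53 took part. Col4a1 fell by 0.96 on the log2 scale (SE 0.08, adjusted p = 1.0e-07) and Col4a2 by 0.94 (SE 0.11, adjusted p = 4.2e-06), without overlap of the groups. With E20/p53 1 to 3 left out the change of Col4a1 was -0.91, and with 4 to 6 left out it was -1.02. Col7a1 rose by 1.69 (SE 0.29, adjusted p = 1.9e-04), and by 2.47 without E20/p53 1 to 3 and 0.92 without 4 to 6. Col16a1 fell by 0.47 (SE 0.09, adjusted p = 6.5e-04) and Col18a1 by 1.23 (SE 0.29, adjusted p = 0.0033). The called change of these 5 genes held without either set of E20/p53.

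The main fibrillar chains rested more on 1 set. Col1a2 changed by -6.07 (SE 2.13, adjusted p = 0.031), which became 0.00 (adjusted p = 0.98) without E20/p53 1 to 3 and -12.14 without 4 to 6. Its call was lost without E20 1 to 3 (-6.29, adjusted p = 0.098) and without E20 4 to 6 (-5.85, adjusted p = 0.13). Col1a1 at -3.37 (SE 1.49, adjusted p = 0.078) did not pass, and it was 0.86 without E20/p53 1 to 3 and -7.60 without 4 to 6. Col3a1 fell by 4.08 (SE 1.25, adjusted p = 0.015), and by 0.52 without E20/p53 1 to 3. Without 4 to 6 its change was -7.63. It missed the threshold without E20 1 to 3 (-3.93, adjusted p = 0.080) and without E20 4 to 6 (-4.22, adjusted p = 0.069). Col5a2 at -1.11 (SE 0.51, adjusted p = 0.091) did not pass, and changed by 0.34 without E20/p53 1 to 3. The type VI chains Col6a1 and Col6a2 kept their direction. Col6a1 changed by -1.22 (SE 0.33, adjusted p = 0.0075) with both sets, by -0.29 without 1 to 3 and by -2.15 without 4 to 6. Col6a2 at -1.42 (SE 0.37, adjusted p = 0.0054) gave -0.39 and -2.44 in the same order. Col6a3 at -1.96 (SE 0.72, adjusted p = 0.037) lost its call without E20/p53 1 to 3 (-0.41, adjusted p = 0.61) and without E20 4 to 6 (-0.68, adjusted p = 0.51). Col12a1 at -1.46 (SE 0.51, adjusted p = 0.030) lost it without E20/p53 1 to 3 (-0.11, adjusted p = 0.73) and without E20 1 to 3 (-0.96, adjusted p = 0.26). These calls are also close to the threshold for single libraries: leaving out any 1 of E20/p53 1, 2 and 3 took the adjusted p of Col1a2 to 0.075, that of Col12a1 to at most 0.073 and that of Col6a3 to at most 0.086. The same 3 genes lost their calls without E20 4, 5 or 6 (Col1a2, Col6a3) or without E20 1, 2 or 3 (Col12a1), and when E20/p53 and E20 alone were fitted (adjusted p = 0.0766, 0.0844 and 0.0752 for Col1a2, Col6a3 and Col12a1).

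Over the family, 9 of 38 tested members fell and 12 rose without E20/p53 1 to 3, where 24.1% and 29.5% of all tested genes did. Without E20/p53 4 to 6, 26 of 39 fell and 7 rose, where 31.5% and 33.8% of all tested genes did. With a set left out, the remaining set alone stands for E20/p53, and such p-values rest on the spread inside sets.

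**Figure D4:**
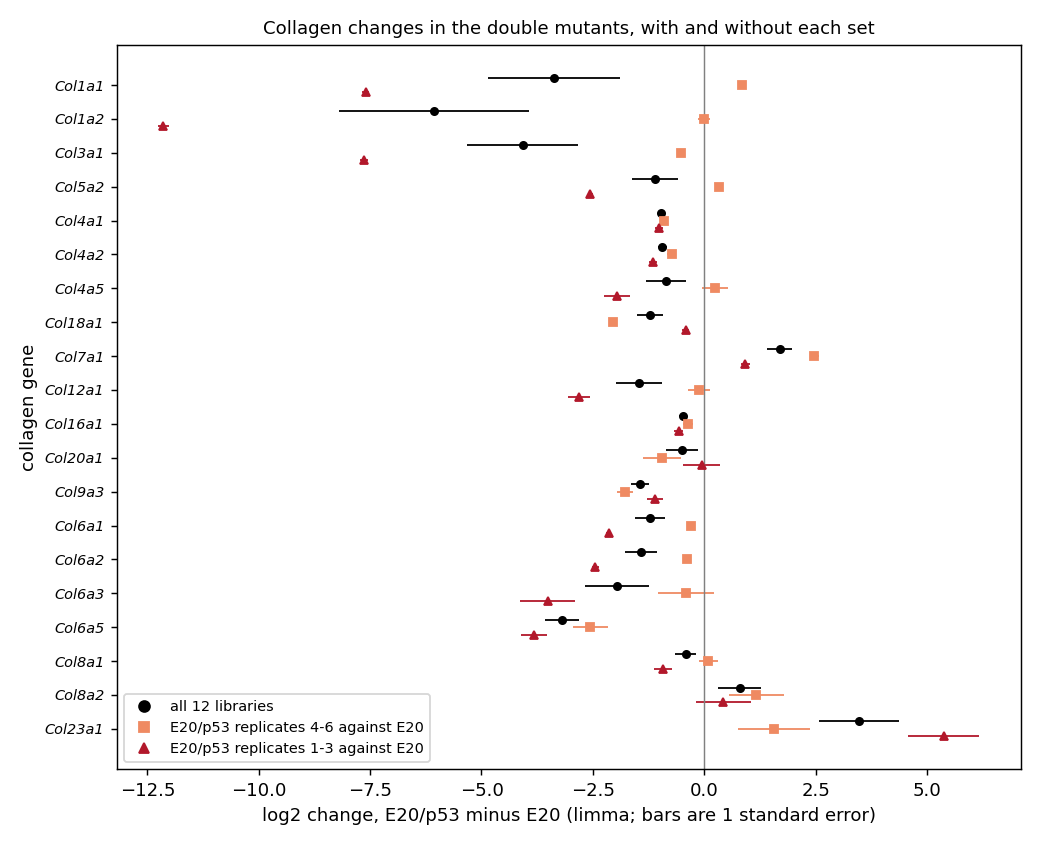
Log2 change of 20 collagen genes in E20/p53 against E20 from limma, with bars of 1 standard error, for all 12 libraries (black circles), for E20/p53 replicates 4 to 6 alone (orange squares) and for replicates 1 to 3 alone (red triangles). The 3 estimates for Col4a1 lie together, between -0.91 and -1.02, and those for Col1a2 lie between 0.00 and -12.14.

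The comparison of E20/p53 with p53 is between tongue with and without mutant PIK3CA, both carrying the p53 allele, and K14-Cre is named for E20/p53 alone. Col4a1 and Col4a2 were again lower in E20/p53. Of 39 members 10 fell and 2 rose, where 12.9% of all tested genes were called lower and 12.9% higher, with a median of -0.77 against 0.02 over all tested genes. Col4a1 fell by 1.37 (SE 0.10, adjusted p = 5.5e-08) and Col4a2 by 1.37 (SE 0.13, adjusted p = 2.0e-06), without overlap. Without E20/p53 1 to 3 they changed by -1.32 and -1.17, and without 4 to 6 by -1.42 and -1.58. Col4a6, Col16a1, Col9a3, Col19a1, Col6a5, Col28a1, Col27a1 and Col26a1 also fell, and Col8a2 (log2 2.84, SE 0.59, adjusted p = 0.0025) and Col11a2 rose. Col9a3, Col19a1, Col6a5 and Col28a1 had means of at most 1.65 CPM in both groups, so their calls rest on few reads. Without E20/p53 1 to 3 the calls of Col27a1 (-1.41, adjusted p = 0.21), Col19a1 (adjusted p = 0.060) and Col6a5 (adjusted p = 0.066) were lost, and that of Col6a5 also without p53 2 or p53 3. The other 9 calls held without either set, among them that of Col26a1, which passed the filter through the p53 libraries alone. Col1a1 at -2.56, Col1a2 at -4.92, Col3a1 at -2.77 and Col5a2 at -1.15 did not pass. Without E20/p53 1 to 3 these 4 genes changed by 1.67, 1.15, 0.79 and 0.30. The family's counts turned with the set left out, from 9 lower and 13 higher of 38 without 1 to 3 (background 16.4% and 18.3%) to 25 lower and 4 higher of 39 without 4 to 6 (32.6% and 31.4%).

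E20 against p53 sets the mutant alleles side by side in tongue. Col6a1 and Col6a2 were higher in E20, and Col4a1 and Col4a2 lower. Of 39 members 6 rose and 11 fell, where 14.5% of all tested genes were called higher and 16.4% lower, with a median of -0.04 against -0.01. Col6a1 rose by 1.35 (SE 0.41, adjusted p = 0.019) and Col6a2 by 1.32 (SE 0.45, adjusted p = 0.034), without overlap, beside Col6a4, Col6a5, Col18a1 and Col8a2. Neither Col6a1 nor Col6a2 passed with E20 1 to 3 left out (adjusted p = 0.056 and 0.11), with E20 4 to 6 left out (0.069 and 0.083), or with any 1 p53 library left out, and Col6a2 missed it also without E20 1, 2 or 3 (adjusted p up to 0.0513). Col6a4 did not pass without E20 1 to 3 or E20 4 to 6 (adjusted p = 0.098 in both) nor Col6a5 without E20 4 to 6 (adjusted p = 0.11), and Col6a5 and Col8a2 each lost their calls with single p53 libraries left out. In all, 7 of the 17 calls held without either E20 set: Col18a1, Col8a2, Col4a1, Col4a6, Col19a1, Col25a1 and Col26a1. Of these 7, Col19a1 and Col26a1 reached the filter through the p53 libraries, so that their calls held adds nothing to their levels. Col4a1 fell by 0.41 (SE 0.10, adjusted p = 0.0042) and Col4a2 by 0.43 (SE 0.13, adjusted p = 0.020), and Col4a2 lost its call without E20 4 to 6 (-0.26, adjusted p = 0.18), without p53 1 and without p53 3. Col4a6, Col15a1, Col2a1, Col27a1, Col19a1, Col22a1, Col23a1, Col25a1 and Col26a1 also fell. Col6a4, Col6a5, Col15a1, Col2a1, Col19a1 and Col22a1 had means of at most 1.41 CPM in both groups, so their calls rest on few reads. Col26a1 was at 15.3 ± 0.473 CPM in p53, and E20 libraries held 0 to 0.273 CPM (log2 -6.80, SE 0.59). It passed the filter through the p53 libraries alone, so its call in any comparison adds nothing to these levels. Col19a1 was at 0.717 to 1.51 CPM in p53, and elsewhere only E20/p53 4 (0.774 CPM) reached the filter. The calls of Col19a1 in comparisons with p53 add nothing to its levels either. Col1a1 (log2 0.81, SE 1.82, adjusted p = 0.78) and Col1a2 (log2 1.16, SE 2.61, adjusted p = 0.78) did not pass in the shared fit. Each E20 library was above each p53 library for both, and both passed when E20 and p53 alone were fitted (adjusted p = 1.89e-04 and 3.15e-04).

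Against WT, Col6a1, Col6a2, Col6a3 and most fibrillar chains were higher in p53 and E20, and Col7a1 was lower in each tongue group. In p53, 19 of 39 members rose and 9 fell, where 29.3% of all tested genes rose and 24.9% fell, with a median of 1.46 against 0.04. Col3a1 rose by 5.91 (SE 1.77, adjusted p = 0.010), Col5a2 by 4.71 (SE 0.73, adjusted p = 5.5e-05), Col6a3 by 7.81 (SE 1.01, adjusted p = 9.9e-06) and Col12a1 by 3.28 (SE 0.72, adjusted p = 0.0013). Col4a1 rose by 1.34 (SE 0.11, adjusted p = 6.8e-08), and Col7a1 fell by 2.97 (SE 0.40, adjusted p = 1.6e-05) and Col18a1 by 1.87 (SE 0.42, adjusted p = 0.0014). In p53 Col1a1 (log2 4.94, adjusted p = 0.057) and Col1a2 (log2 1.31, adjusted p = 0.74) did not pass, and both did when p53 and WT alone were fitted (adjusted p = 1.57e-16 and 1.32e-10). The p-values of that fit rest on the spread inside these sets alone, which may be technical.

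In E20, 18 members rose and 9 fell against WT (29.0% and 26.4% of all tested genes), with a median of 0.73 against 0.04. Col1a1 rose by 5.76 (SE 1.82, adjusted p = 0.013), Col3a1 by 7.22 (SE 1.53, adjusted p = 8.3e-04) and Col6a2 by 5.26 (SE 0.45, adjusted p = 6.3e-08), and Col7a1 fell by 3.79 (SE 0.35, adjusted p = 1.6e-07). Col1a1 did not pass without E20 1 to 3 (adjusted p = 0.055) or without E20 4 to 6 (adjusted p = 0.051). In E20/p53, 11 rose and 9 fell (26.5% and 21.6% of all tested genes), with a median of 0.65 against 0.05. Col5a2 rose by 3.56 (SE 0.63, adjusted p = 2.0e-04) and Col6a3 by 6.64 (SE 0.88, adjusted p = 1.1e-05), Col7a1 fell by 2.10 (SE 0.35, adjusted p = 1.2e-04), and Col1a1 (log2 2.38), Col1a2 (-3.61) and Col3a1 (3.14) did not pass. The 3 comparisons share the WT libraries. Counts against WT were 21 higher and 9 lower of 38 without E20/p53 1 to 3 (37.5% and 30.8% of all tested genes), and 13 higher and 16 lower of 39 without 4 to 6 (31.5% and 27.0%).

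Most pairs of chain genes did not keep a constant ratio between sets. Ratios were taken per kb of merged exon, so that levels of different genes can be compared. Col1a1 over Col1a2 was 1.66 ± 0.0705 in p53, 1.55 ± 0.0712 and 1.10 ± 0.130 in E20 and 2.37 ± 0.130 in E20/p53 4 to 6. It was 0.133 ± 0.00232 in WT and 31.4 ± 1.48 in E20/p53 1 to 3, a span of 236-fold over the 6 sets. The merged exons of Col1a2 hold 12426 bases and its longest coding transcript 5348, so per kb of that transcript, a scale chosen after the data were seen, the ratio was 0.526 to 1.13 in p53, E20 and E20/p53 4 to 6, 0.0634 in WT and 14.97 in E20/p53 1 to 3. The span between sets does not depend on that length, but which chain is the higher in p53 and E20 does. Col6a1 over Col6a2 was 2.73 ± 0.0629 to 3.58 ± 0.0874 in the tongue sets and 16.1 ± 1.72 in WT, and per kb of the longest coding transcript it was 1.38 to 1.82 and 8.18. Col6a3 over Col6a1 ran from 0.00495 ± 0.00144 in WT to 0.683 ± 0.0329 in E20 4 to 6. Col5a1 over Col5a2 ran from 0.412 ± 0.0289 in p53 to 3.66 ± 0.197 in WT.

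Col4a1 over Col4a2 had the narrowest range of the 10 pairs, from 1.10 ± 0.0275 in WT to 1.51 ± 0.00852 in E20/p53 1 to 3. These genes lie head to head on chromosome 8, with Col4a1 at 11198423 to 11312826 on the minus strand and Col4a2 at 11312805 to 11449287 on the plus strand, so that their annotated spans overlap by a few bases. The strand setting of the counting is not known, and reads in that overlap cannot be told apart without it. The other collagen IV pairs also lie head to head. Col4a3 over Col4a4 on chromosome 1 ran from 0.834 to 1.63, with both genes under 1 CPM in tongue, and Col4a5 over Col4a6 on chromosome X ran from 22.6 to 1789, with Col4a6 under 1 CPM in 4 of the sets. Col3a1 and Col5a2 are neighbours on chromosome 1, and Col3a1 over Col5a2 ran from 0.0916 ± 0.00227 in E20/p53 1 to 3 to 3.56 ± 0.0480 in E20 1 to 3. Col1a1 lies on chromosome 11 at 94936224 to 94953042 and Col1a2 on chromosome 6 at 4504814 to 4541544.

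**Figure D5:**
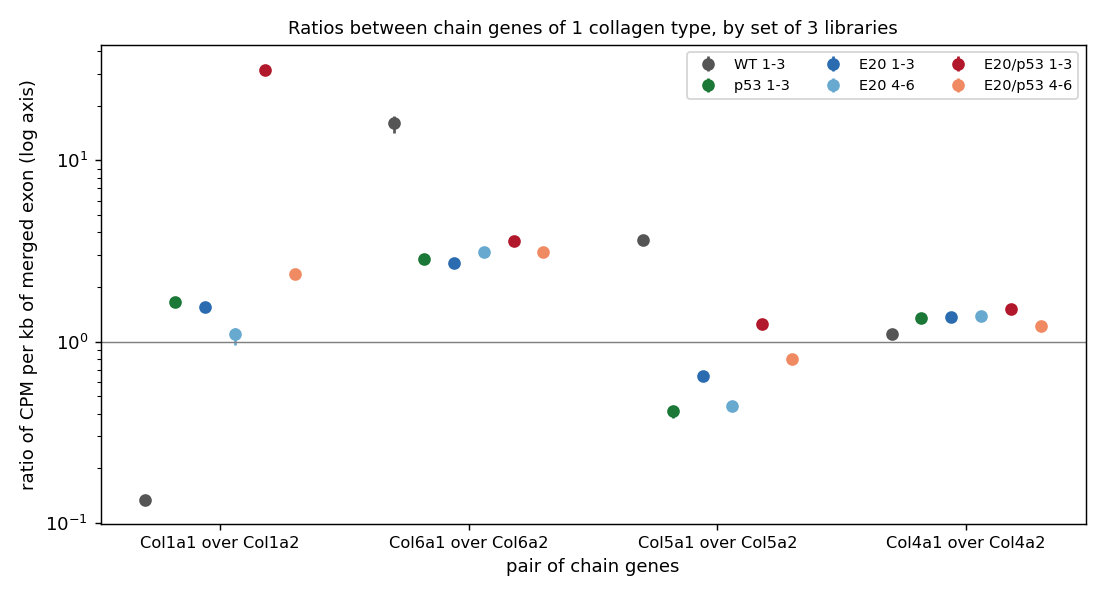
Ratio of CPM per kb of merged exon on a log axis for 4 pairs of chain genes, 1 point per set of 3 libraries, with bars from the lowest to the highest library. Col1a1 over Col1a2 spans 0.133 to 31.4 and Col4a1 over Col4a2 spans 1.10 to 1.51.

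Promoter sequence is shown for Col1a2 and Col3a1, fibrillar genes whose levels lay far apart between the E20/p53 sets, from RefSeq on GRCm38.p6. A window of 250 bases before the start was given for 34 of the 43 members (37 windows). The start is that of RefSeq, which for Col1a2 lies inside the longer GENCODE span given above, so its window is not at the GENCODE start. The Col1a2 window, chr6:4505368-4505617 (+), was 62.0% G and C with 11 CpG, and its first part outside annotated exons, chr6:4505370-4505492, is printed with the GGGCGG boxes in capitals. The Col3a1 window, chr1:45311288-45311537 (+), was 35.2% G and C with no CpG, and its TATAAA is in capitals.
Col1a2: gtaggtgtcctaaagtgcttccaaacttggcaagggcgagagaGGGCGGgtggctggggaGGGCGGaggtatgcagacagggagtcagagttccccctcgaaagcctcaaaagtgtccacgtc
Col3a1: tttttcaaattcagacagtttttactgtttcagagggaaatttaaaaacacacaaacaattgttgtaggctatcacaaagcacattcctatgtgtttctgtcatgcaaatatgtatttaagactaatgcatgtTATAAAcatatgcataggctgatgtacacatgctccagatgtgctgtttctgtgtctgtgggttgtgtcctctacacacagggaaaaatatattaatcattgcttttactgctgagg
On either strand, GGGCGG was found in 59.5% of member windows and 32.7% of all 32851 windows, TATAAA in 10.8% and 12.4%, and CCAAT in 32.4% and 33.8%. A match is a description of the letters and not a measured site.

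Genes that make, process and bind collagen were counted by list. Of the 23 tested genes of procollagen folding and hydroxylation, 12 fell and P3h2 rose in E20/p53 against E20, where 19.6% of all tested genes fell and 23.0% rose. Their median log2 change was -0.51, against 0.05 for all tested genes. Against WT, 13 rose in p53, 19 in E20 and 10 in E20/p53, with 1 lower in each. Of all tested genes 29.3%, 29.0% and 26.5% rose and 24.9%, 26.4% and 21.6% fell in the same order. Serpinh1, the collagen chaperone HSP47, was at 247 ± 0.787 CPM in WT, 1147 ± 30.6 in p53, 1392 ± 59.5 and 1306 ± 18 in E20, 195 ± 7.68 in E20/p53 1 to 3 and 1476 ± 45.0 in 4 to 6. It fell by 1.33 in E20/p53 against E20 (SE 0.52, adjusted p = 0.048), but changed by 0.13 without E20/p53 1 to 3, and lost its call without either E20 set, without any 1 E20 library, without any 1 of E20/p53 1 to 3 (adjusted p up to 0.11), and when both groups alone were fitted (adjusted p = 0.105). Fkbp10, a chaperone of the same compartment picked after its values were seen, was at 0.660 ± 0.231 CPM in E20/p53 1 to 3, 12.8 ± 0.828 in WT and 308 to 449 CPM in the other sets. The prolyl hydroxylase P4ha1 was at 117 ± 2.61 CPM in WT, 243 ± 7.02 in E20/p53 1 to 3 and 374 to 492 CPM elsewhere.

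Of 12 tested genes of trimming and crosslinking, Loxl1, Loxl3, Pcolce and Adamts14 fell and Tll1 and Pcolce2 rose in E20/p53 against E20, with a median of -0.09. Of all tested genes 19.6% fell and 23.0% rose, with a median of 0.05, and the 2 of 12 that rose are near that share. Loxl1, at 10.7 ± 0.265 and 236 ± 5.51 CPM in the E20/p53 sets, lost its call without E20/p53 1 to 3 (-0.20, adjusted p = 0.47), without E20 1 to 3 (adjusted p = 0.15), without any 1 of E20/p53 1, 2 and 3 (adjusted p up to 0.0557) and when both groups alone were fitted (adjusted p = 0.0615). Pcolce, which enhances removal of the C-propeptide, was at 68.4 ± 1.24 CPM in E20/p53 1 to 3 against 607 ± 21.4 in 4 to 6, 1022 ± 64.8 and 999 ± 26.7 in E20, 781 ± 42.7 in p53 and 375 ± 6.79 in WT, and fell by 2.31 (SE 0.56, adjusted p = 0.0034). It fell by 0.73 without E20/p53 1 to 3. The lysyl oxidase genes differed among themselves. Lox was at 314 ± 12.2 and 1013 ± 40.7 CPM in the E20/p53 sets and 106 ± 1.90 in WT. Loxl2 was at 206 ± 6.90 CPM in p53, 76.0 ± 0.981 in E20/p53 4 to 6 and 4.42 ± 0.592 to 20.62 ± 0.378 in the other sets, and fell in E20 against p53 by 4.95 (SE 0.86, adjusted p = 3.6e-04). Loxl3 was at 2.91 ± 0.308 CPM in E20/p53 1 to 3 and at 49.7 ± 3.21 or more elsewhere, and fell in E20/p53 against E20 by 3.28 (SE 0.72, adjusted p = 0.0018).

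Of 8 tested receptor and uptake genes, Mrc2, Ddr2, Itga10 and Itga11 fell and Ddr1 and Itga2 rose in E20/p53 against E20. Their median was -0.32, against 0.05 for all tested genes. Of all tested genes 19.6% fell and 23.0% rose, and the share of risers in the list was near the latter. Of these 6 calls that of Mrc2 alone held with each of the 4 sets left out in turn. Ddr2, the fibrillar collagen receptor of mesenchymal cells, was at 1.12 ± 0.170 CPM in E20/p53 1 to 3 and at 434 ± 22.4 to 997 ± 24.0 in the other tongue sets, with 58.3 ± 3.46 in WT. Ddr1, its relative in epithelia, ranged from 69.4 ± 1.78 CPM in E20 4 to 6 to 188 ± 3.31 in WT. Ddr2 fell by 4.71 (SE 1.57, adjusted p = 0.024) and changed by -0.28 (adjusted p = 0.43) without E20/p53 1 to 3. The Ddr2 call was also lost without either E20 set (adjusted p = 0.0587 and 0.147), and without any 1 of E20/p53 1, 2 and 3. Mrc2, an uptake receptor for cut collagen, fell by 2.64 (SE 0.59, adjusted p = 0.0021), and by 0.97 without that set.

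Of 6 tested degradation genes, Mmp2, Mmp9, Mmp13, Mmp14 and Fap fell in E20/p53 against E20, with a median of -2.55 against 0.05 for all tested genes, of which 19.6% fell. The call of Mmp13 was lost without E20 4 to 6 (adjusted p = 0.0591) and without E20/p53 4 to 6 (adjusted p = 0.0504). Mmp2, the gelatinase of stromal cells, was at 2.85 ± 0.201 CPM in WT, 247 ± 4.03 in p53, 767 ± 22.9 and 832 ± 58.0 in E20, 25 ± 1.61 in E20/p53 1 to 3 and 398 ± 20.7 in 4 to 6. It fell by 3.00 (SE 0.70, adjusted p = 0.0028) and by 1.00 without E20/p53 1 to 3. Mmp14, the membrane enzyme that activates it, fell by 0.87 (SE 0.09, adjusted p = 1.2e-06), by 0.65 without 1 to 3 and by 1.09 without 4 to 6. Fap is also among the fibroblast markers above.

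Averaging each set of 3 to 1 value left 6 set means and 2 residual degrees of freedom. WT and p53 then had 1 value each and were assumed to vary like E20 and E20/p53, from which all the spread came, so few calls could be made and their number says nothing of stability. limma called 0 of 39 collagens in each of the 6 comparisons. At an unadjusted p under 0.05 the number was 5 in E20/p53 against E20, 4 in E20/p53 against p53, 3 in E20 against p53, and 13, 13 and 14 against WT in p53, E20 and E20/p53. The shares of all tested genes were 6.39%, 2.77%, 4.13%, 10.7%, 13.6% and 10.3% in the same order.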

How the data were processed

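The kit was TruSeq Stranded mRNA LT, per the labels' protocols. Per the submitters' processing notes, bcl2fastq 1.8.4, Trimmomatic, featureCounts and the build mm10 were used. For the aligner, annotation, strand setting and scaling method, the sources used here give no name. The deposited values are log2 of the ratio of reads plus 1 to an adjusted library total, and whole reads came back to within 0.001 for 100% of values. That total was 0.939 to 1.12 of the reads summed. Within a set, the median gene's variance was 1.56 to 2.87 times counting error.

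limma 3.58.1 in R 4.3.3, with the mean-variance trend, fitted the log2 values of all 18 libraries with a mean per group (14 residual degrees of freedom). Genes with at least 3 libraries at 0.635 CPM (10 reads at the median depth) and 15 reads in all were tested, and adjusted p under 0.05 (Benjamini-Hochberg over 15235 genes) was called. Each log2 change is the first group minus the second. The fit was tested on simulated data in which libraries were independent and formed no sets, so that test says nothing about calls under the sets seen here.

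The members, gene lists and tests were chosen with earlier results of these data known. Set means are given for members with 10 CPM or more in a set, and tests for up to 4 members per type by highest set mean plus Col1a1, Col1a2, Col3a1, Col4a1, Col4a2, Col6a1 to Col6a3 and Col7a1, and for a fixed choice of pathway genes. Positions and exons are from GENCODE M21, and promoters from RefSeq. Markers of simple epithelium, smooth muscle, endothelium, leukocytes, cartilage, bone and glia were also summed. Alternatives were other scaling, filters, offsets, the 2 compared groups alone, a replicate block, no trend, and each library or set left out.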

Additional observations from a re-analysis of the deposited data

How the results depend on the processing

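The family's 12 counts of higher and lower collagens were recomputed. On 6 set means, with 2 residual degrees of freedom, all 12 were 0. With at least 3 libraries at 5 CPM, 6 members rose in E20/p53 against E20, 7 fell in E20 against p53 and 6 fell in E20/p53 against p53. With the 2 compared groups alone, 9 fell in E20/p53 against E20. Sets left out moved counts as follows. Without E20 4 to 6, 3 of 38 rose and 6 fell in E20 against p53 (13.7% and 15.4% of all tested genes). The 6 of 38 is near that share. In E20/p53 against E20, 4 of 38 rose then (20.7%). Without E20/p53 1 to 3, of 38 members 13 rose against p53 (18.3% of all tested genes), 21 rose against WT (37.5%) and 9 fell against E20 (24.1%). Without E20/p53 4 to 6, of 39 members 4 rose and 25 fell against p53 (31.4% and 32.6%). Then 26 fell against E20 (31.5%) and 16 against WT (27.0%). For the 5 CPM filter, the 2 groups alone, the replicate block and single libraries left out, no share of all tested genes is given. Those counts show only how far the number of calls moved and are not read as results about the family.

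Leaving out 1 library gave 8 to 10 higher and 9 to 17 lower in E20/p53 against E20, 2 to 3 and 5 to 10 in E20/p53 against p53, 1 to 6 and 5 to 11 in E20 against p53, 16 to 18 and 8 to 9 in p53 against WT, 16 to 18 and 7 to 9 in E20 against WT, and 11 to 13 and 8 to 10 in E20/p53 against WT. The counts moved by over 1.5 times without p53 1, 2 or 3 (1, 2 and 2 higher, 6, 7 and 5 lower in E20 against p53), without p53 1 or 3 (6 and 5 lower in E20/p53 against p53) and without E20/p53 1, 2 or 3 (9 lower against E20 each). Without any 1 p53 library Col26a1 no longer passed the filter, nor did Col28a1 without p53 1 or p53 3. The counts of lower members there thus lack genes that were not tested. The cause of the other moves was not tested.

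Correlations between the deviations of same-numbered libraries from their group means were -0.0543 to 0.0744 over 21 pairs. In E20 and E20/p53 those deviations hold the difference between the sets, so the correlations cannot exclude a pairing by number there. With a replicate block, 2 members rose in E20 against p53, and 4 rose and 17 fell in E20/p53 against p53, and the other 9 counts stayed within 1.5 times. Signs turned under the block for Col1a1 (-1.29) and Col1a2 (-1.99) in E20 against p53 and Col1a2 in E20 against WT (-0.68). Without E20/p53 1 to 3 they turned against E20 for Col1a1 (0.86), Col5a2 (0.34) and Serpinh1 (0.13), against p53 for Col1a1 (1.67), Col1a2 (1.15), Col3a1 (0.79) and Col5a2 (0.30), and against WT for Col1a2 (2.46). Without E20/p53 4 to 6 Col1a1 turned against WT (-1.84). Other scaling shifted group medians by -0.0235 to 0.0341 on the log2 scale. Members under 1 CPM rest on few reads, so small differences among them are not detectable at this depth.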

Other observations

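Markers of other cell types gave the following summed levels. Markers of smooth muscle and pericytes, which also make collagen, summed to 4614 ± 190 CPM in E20 1 to 3 and 941 ± 21.4 in E20 4 to 6. In E20/p53 they summed to 423 ± 11.2 CPM in 1 to 3 and 3533 ± 86.5 in 4 to 6, and in p53 and WT to 2633 ± 167 and 950 ± 39.4. Acta2 and Tagln carried nearly all of each sum (3595 and 1000 CPM in E20 1 to 3), and Myh11 and Rgs5 were under 1 CPM in every set. Simple epithelium markers summed to 276 ± 9.20 CPM in WT and to 9.26 ± 0.110 or less in tongue. Cartilage markers were at 122 ± 3.36 CPM in WT and 23.7 ± 0.886 to 51.7 ± 1.69 in tongue, and bone markers were at 59.2 ± 5.55 to 142 ± 8.41 CPM over the 6 sets. Sox9 carried most of the cartilage sum (103 CPM in WT) and Runx2 most of the bone sum (78.0 CPM in WT), both of which other cell types express, and Matn1, Hapln1 and Ibsp were under 0.1 CPM in every set. Markers of endothelium and glia stayed under 6 CPM and of leukocytes at or under 21.4 ± 1.77 CPM.

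Mmp13, a collagenase named after its values were seen, was at 521 ± 58.7 CPM in E20 4 to 6 and at 0.695 ± 0.175 to 11.9 ± 0.673 in the other 5 sets. The group of 6 E20 libraries therefore held both, as it did for Col6a3.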
